A study of Caenorhabditis elegans with 12 samples.

Results

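The genes described are 7 small heat shock genes of Caenorhabditis elegans outside the hsp-16 cluster, hsp-12.1, hsp-12.2, hsp-12.3, hsp-12.6, hsp-25, hsp-43 and sip-1, as measured on an Affymetrix expression array. They were selected by gene symbol in the array annotation, out of 17118 genes that carry a probe set (a group of probes for 1 transcript) with a symbol of their own, and 8 probe sets carry these symbols, since sip-1 has 2. The study measured total RNA of whole wild-type N2 worms with 12 arrays in 4 groups of 3. Feeding on HT115 bacteria for RNA interference (RNAi) began at day 1 of adulthood and lasted 3 days, with eggs and larvae washed away every other day, and the labels call the animals day 3 adults. The RNAi labels read Empty Vector, HSP-6, HSP-6;HSF-1 and HSP-6;DVE-1. The last 2 groups combine RNAi of hsp-6 with RNAi of a second gene and are called the hsf-1 double and the dve-1 double group here. All groups share the N2 background and the bacterial host, and none of the groups received hsf-1 or dve-1 RNAi without hsp-6 RNAi. Values are log2 GCRMA values, in which 1 unit is a doubling of signal, and they are comparable between arrays for 1 probe set but not between probe sets.

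Small heat shock proteins share an alpha-crystallin domain and hold unfolding proteins in a soluble state without using ATP, until chaperones such as Hsp70 refold them. In worms the hsp-16 genes are strongly raised by heat through the transcription factor HSF-1, whereas the other family members are known mostly for tissue-specific or developmental expression. The hsp-12 genes encode very short family members, and HSP-12.6 showed no chaperone activity in test-tube assays. Of the RNAi targets, hsp-6 encodes the Hsp70 of mitochondria, and dve-1 a DNA-binding protein that acts in the response to unfolded mitochondrial proteins. The question of the design is which transcripts change when hsp-6 is lost, and whether hsf-1, dve-1 or both are needed for this.

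The arrays as a whole set some limits. The hsp-6 transcript itself was at 10.96 to 11.3 with empty vector, 6.6 to 6.97 with hsp-6 RNAi, 9.29 to 10.08 in the hsf-1 double group and 9.13 to 10.26 in the dve-1 double group, so both double RNAi groups retained more hsp-6 transcript than hsp-6 RNAi alone. hsf-1 was at 8.26 to 8.8 with empty vector and 7.63 to 7.94 with hsp-6 RNAi. It was at 6.68 to 7.24 in the hsf-1 double group and 6.87 to 8.12 in the dve-1 double group. The hsf-1 double group was not called against hsp-6 RNAi (adjusted p = 0.121, limma) and overlapped the dve-1 double group. A knockdown of hsf-1 particular to the hsf-1 double group is thus not shown here either. dve-1 went against the label, at 7.14 to 8.9 in the dve-1 double group and 5.09 to 5.83 with hsp-6 RNAi (adjusted p = 0.0297, limma), so dve-1 double is the labelled condition throughout and not a knockdown shown here. The first principal component held 56.5% of the variance over the tested probe sets. Replicate 3 of the hsf-1 double group and replicate 2 of the dve-1 double group stood farthest out on it. Nothing in the labels says that replicates came from separate cultures, so the p-values measure only the spread between these samples, which may be technical. All 8 member probe sets passed the filter, a log2 value above 4 in at least 3 arrays, as did 12057 probe sets in all.

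No member was called changed by hsp-6 RNAi, and hsp-12.1 was the 1 member called in any comparison: it was higher in both double RNAi groups than with hsp-6 RNAi alone. Of all tested probe sets 2.74% were called with hsp-6 RNAi against empty vector, and 5.67% and 5.74% in the hsf-1 and dve-1 double groups against hsp-6 RNAi. hsp-12.1 (probe set 190691_at) encodes a short protein of the HSP-12 subgroup. Its values were 4.21, 5.1 and 5.41 in the empty vector arrays and 4.21, 4.5 and 3.97 under hsp-6 RNAi. They were 5.71, 5.48 and 6.29 in the hsf-1 double group and 5.98, 6.55 and 5.94 in the dve-1 double group. All 6 double RNAi arrays lay above all arrays of the other groups, and hsp-6 RNAi overlapped empty vector. Of all tested probe sets 12.9% and 14% lay wholly above hsp-6 RNAi in the hsf-1 and dve-1 double groups, and 14.5% and 14.3% wholly above empty vector. The signal was low throughout, and 1 hsp-6 RNAi array lay below log2 4.

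hsp-12.1 rose by 1.60 in the hsf-1 double group over hsp-6 RNAi (SE 0.35, 95% interval 0.82 to 2.38, 3.03-fold, adjusted p = 0.0287, limma with Benjamini-Hochberg adjustment over all tested probe sets). Its rise in the dve-1 double group was 1.93 over the same arrays (SE 0.35, interval 1.15 to 2.71, 3.81-fold, adjusted p = 0.0152, limma). The double RNAi groups overlapped, and the hsf-1 double differed from the dve-1 double group by -0.33 (interval -1.11 to 0.45). hsp-6 RNAi differed from empty vector by -0.68 (interval -1.46 to 0.10, adjusted p = 0.293, limma). Over empty vector the differences were 0.92 for the hsf-1 double (adjusted p = 0.131, limma) and 1.25 for the dve-1 double group (adjusted p = 0.0758, limma). In order, the means were 4.23 with hsp-6 RNAi, 4.91 with empty vector, 5.83 in the hsf-1 double and 6.16 in the dve-1 double group, and the one pair of neighbours whose arrays did not overlap was empty vector and the hsf-1 double group.

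Both calls on hsp-12.1 depended on single arrays. In the hsf-1 double group it missed the threshold when replicate 1, 2 or 3 of hsp-6 RNAi, or replicate 1 or 3 of the double group, was left out (adjusted p = 0.0979, 0.0719, 0.112, 0.0933 and 0.0871, limma), with differences from 1.37 to 1.74 in these 5 fits. For the dve-1 double group this happened when replicate 1 or 3 of hsp-6 RNAi, or replicate 1 or 2 of the double group, was left out (adjusted p = 0.0696, 0.0753, 0.0525 and 0.0552, limma), with differences from 1.73 to 2.02 in these 4 fits.

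**Figure D1:**
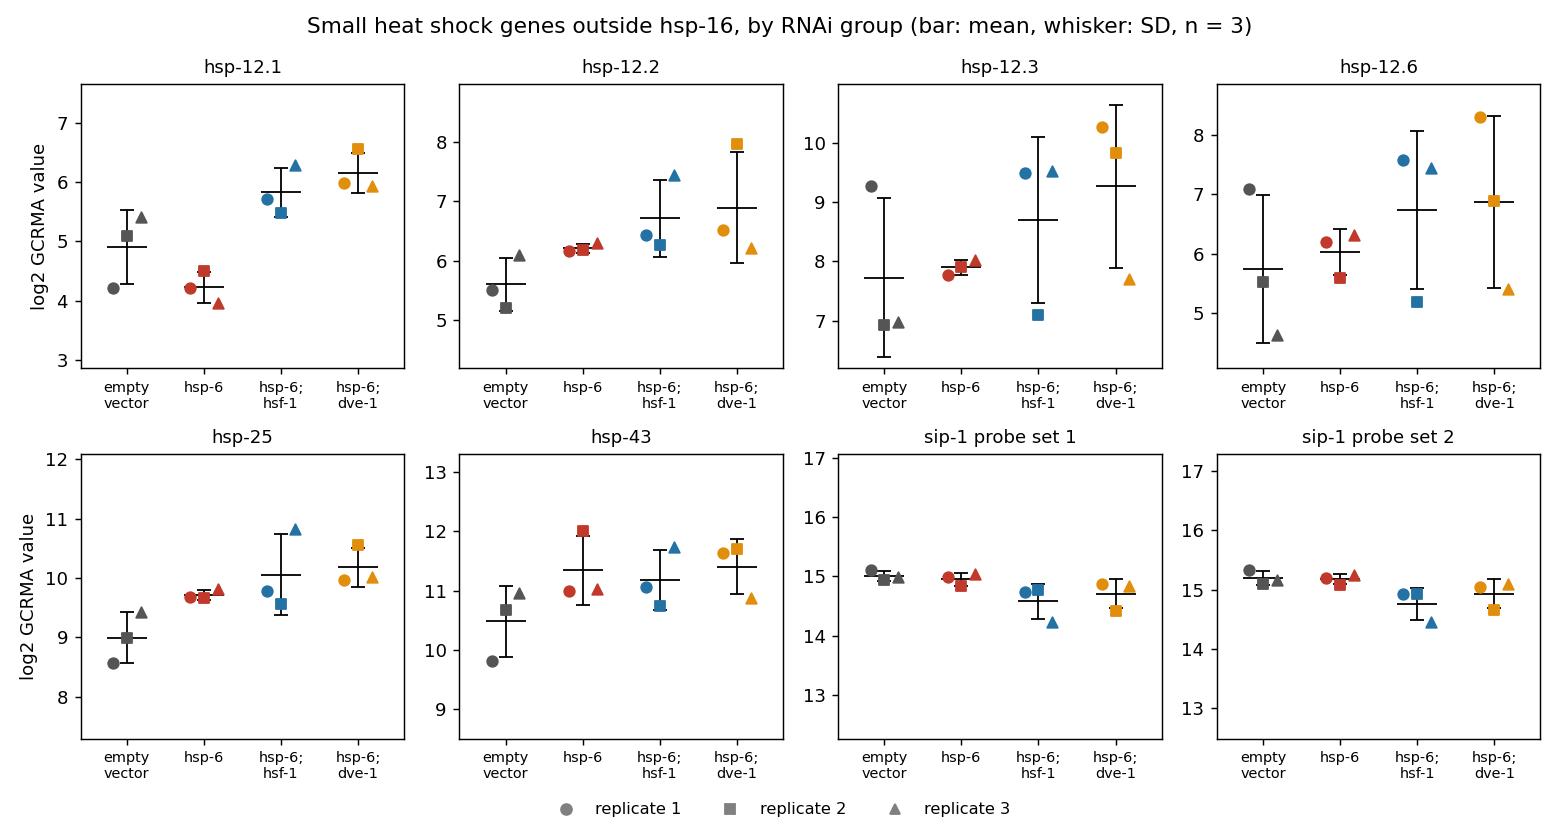
Log2 GCRMA values of the 8 probe sets (vertical axis, the same span in each panel) in each of the 4 RNAi groups; points are arrays, shaped by replicate number, bars are means and whiskers SD of 3 arrays. For hsp-12.1 all double RNAi arrays lie above the others. For hsp-12.3 and hsp-12.6 the spread within groups is wide except with hsp-6 RNAi. The sip-1 values vary least within groups when the SD is pooled over the groups.

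Markers of several other tissues moved in the same arrays in which hsp-12.1 was high. Of 92 cuticle collagen genes tested, 34 rose and 1 fell in the hsf-1 double group over hsp-6 RNAi, with a median difference of 2.04 beside -0.10 for all tested probe sets. Of 13 sperm markers 11 rose and none fell (median 5.56), and of 14 body wall muscle markers 6 rose and none fell (median 1.52). Likewise 25 collagens, 8 sperm markers and 5 muscle markers rose in the dve-1 double group, and none fell. Of 4 tested pharynx and spermatheca markers none was called in either double RNAi group against hsp-6 RNAi (medians 0.55 and 0.37). These 4 were tnc-2, fkh-6, fln-1 and ajm-1. Of the 9 listed, myo-1, myo-2, ceh-22 and pha-4 did not pass the filter on low values. The listed sth-1 matched no symbol in the array annotation used. The mean log2 level of the collagens per array ranged from 6.61 to 7.53 with empty vector, 6.73 to 6.79 with hsp-6 RNAi, 7.75 to 9.31 in the hsf-1 double and 7.55 to 9.26 in the dve-1 double group. The mean sperm marker level ranged from 4.37 to 7.88, 3.74 to 6.42, 9.6 to 11.42 and 8.3 to 11.68 in the same order, and the mean muscle marker level from 8.63 to 9.03, 8.52 to 8.68, 9.51 to 10.75 and 9.14 to 10.56. In whole worms a change in the number of cells of a type and a change of RNA per cell cannot be told apart.

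Over the 12 arrays hsp-12.1 had a Pearson r of 0.885 (Spearman rho 0.916) with the mean collagen level and of 0.767 (rho 0.811) with the mean sperm marker level. Taken as deviations from group means, these were 0.691 and 0.041. Other marker lists also correlated with hsp-12.1, so the collagens were not particular in this. For muscle markers r was 0.855 (0.571 for deviations), and for pharynx and spermatheca markers 0.736 (0.57). For oocyte and embryo markers r was -0.778 (-0.751 for deviations). These are descriptions of 12 arrays that share 4 groups and 1 normalization, and the part of these tissues in the hsp-12.1 result was not tested. The 3 genes most like hsp-12.1 over the 12 arrays were the cuticle collagen col-140 (r = 0.959), the transthyretin-like gene ttr-31 (r = 0.957) and dct-18 (r = 0.957). col-140 read 11.46 in empty vector replicate 1, where hsp-12.1 was at 4.21, and 13.06 and 13.21 in replicates 2 and 3, where hsp-12.1 was at 5.1 and 5.41. Both genes thus differed among the empty vector arrays in the same order.

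hsp-25, hsp-43 and hsp-12.2 read higher with hsp-6 RNAi than in every empty vector array, but none of them passed the test; 19.4% of all tested probe sets lay wholly above empty vector in this way. hsp-25 (190900_s_at), whose protein is found at dense bodies and M-lines of body wall muscle, had 8.56, 8.99 and 9.42 in the empty vector arrays and 9.68, 9.66 and 9.81 under hsp-6 RNAi. The hsf-1 double arrays gave 9.78, 9.56 and 10.83, and the dve-1 double arrays 9.97, 10.56 and 10.01. All 9 arrays with hsp-6 RNAi, alone or in combination, lay above the 3 empty vector arrays.

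hsp-25 differed from empty vector by 0.72 with hsp-6 RNAi (SE 0.33, interval 0.01 to 1.44, adjusted p = 0.226, limma). The differences were 1.07 in the hsf-1 double (SE 0.33, adjusted p = 0.0975, limma) and 1.19 in the dve-1 double group (SE 0.33, 2.28-fold, adjusted p = 0.07, limma). Over hsp-6 RNAi the double RNAi groups differed by 0.34 (interval -0.37 to 1.06) and 0.46 (interval -0.25 to 1.18). Single arrays decided these calls too. hsp-25 was called against empty vector in the dve-1 double group once replicate 3 of the hsf-1 double, an array of neither group, was left out (adjusted p = 0.0234, limma), and in the hsf-1 double group without its replicate 2 (adjusted p = 0.0434, limma). With both outlying double RNAi arrays left out, it was also called with hsp-6 RNAi alone (0.72, adjusted p = 0.0443, limma). Over the 12 arrays hsp-25 had r = 0.71 (rho 0.65) with the mean muscle marker level, and 0.651 for deviations from group means. With the mean level of oocyte and embryo markers it had r = -0.834 (rho -0.613), and -0.804 for deviations. For collagens r was 0.697 (0.671 for deviations), for pharynx and spermatheca markers 0.731 (0.753) and for sperm markers 0.587 (0.202). The muscle list thus did not stand out. With hsp-6 RNAi, none of the 14 muscle markers lay above all empty vector arrays, beside 19.4% of all tested probe sets, and 1 lay below. The part of these tissues in the hsp-25 values was not tested.

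hsp-43 (190097_s_at), which encodes a larger member of the family, was at 9.81, 10.67 and 10.97 in the empty vector arrays and 10.99, 12.01 and 11.03 under hsp-6 RNAi. It was at 11.06, 10.75 and 11.74 in the hsf-1 double and 11.64, 11.7 and 10.87 in the dve-1 double group. The highest empty vector array and the lowest hsp-6 RNAi array were nearly level, and both double RNAi groups overlapped every other group. The difference between hsp-6 RNAi and empty vector was 0.86 (SE 0.39, interval 0.01 to 1.71, 1.82-fold, adjusted p = 0.227, limma), and the double RNAi groups differed from hsp-6 RNAi by -0.16 (interval -1.02 to 0.69) and 0.06 (interval -0.79 to 0.91).

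hsp-12.2 (192659_at), of the HSP-12 subgroup, gave 5.5, 5.21 and 6.09 in the empty vector arrays and 6.16, 6.18 and 6.3 under hsp-6 RNAi. In the hsf-1 double group it gave 6.43, 6.26 and 7.45, and in the dve-1 double group 6.51, 7.96 and 6.22. Its highest values were in the outlying arrays, replicate 3 of the hsf-1 double and replicate 2 of the dve-1 double group. The differences from empty vector were 0.61 with hsp-6 RNAi (interval -0.39 to 1.61, adjusted p = 0.468, limma), 1.11 in the hsf-1 double (interval 0.11 to 2.12, adjusted p = 0.142, limma) and 1.30 in the dve-1 double group (interval 0.30 to 2.30, adjusted p = 0.12, limma).

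Among the members, hsp-12.2 and hsp-25 followed each other over the 12 arrays (r = 0.908, rho 0.867, and r = 0.816 for deviations from group means). The genes most like hsp-12.2 were txt-13 (r = 0.962), the neuropeptide gene flp-3 (r = 0.954) and tag-209 (r = 0.953). Those most like hsp-25 were madd-4, which encodes a secreted guidance and synapse protein (r = 0.969), F47D12.6 (r = 0.964) and T14A8.2 (r = 0.961). For hsp-43 they were the fatty acid and retinol binding gene far-6 (r = 0.946), cri-2 (r = 0.945) and the saposin-like gene spp-10 (r = 0.929).

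**Figure D2:**
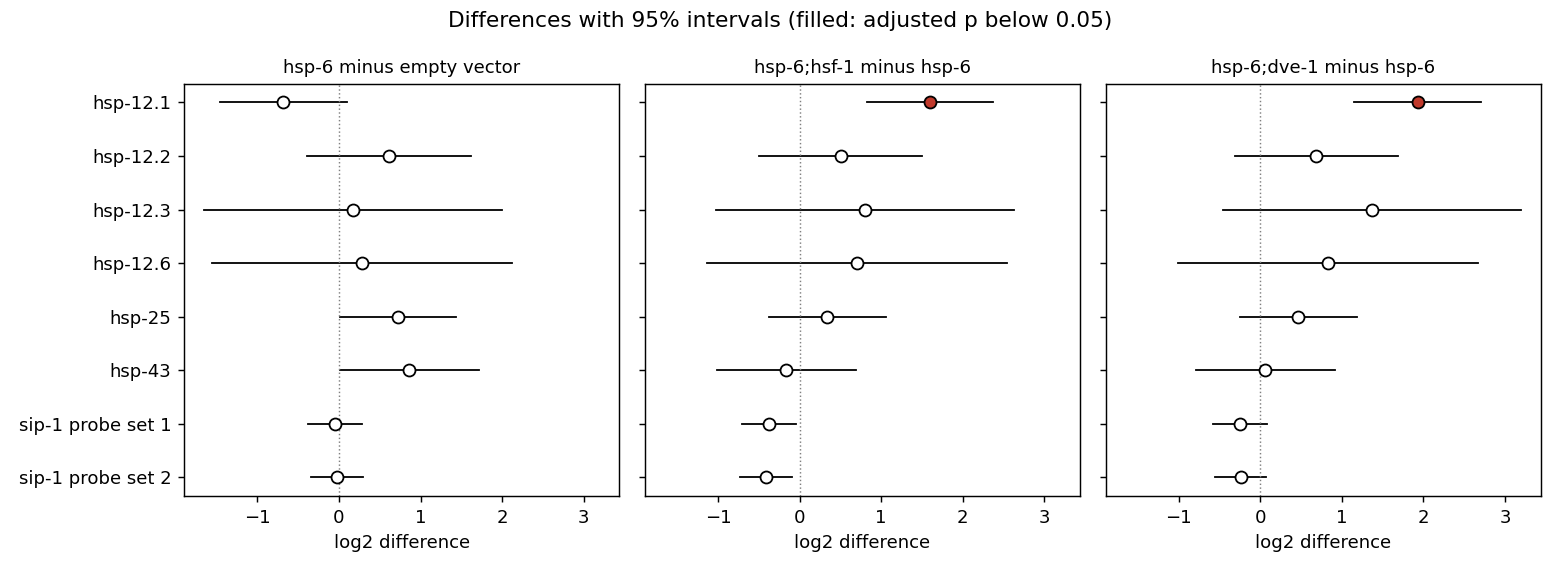
Log2 differences (horizontal axis) of the 8 probe sets for hsp-6 RNAi minus empty vector and for each double RNAi group minus hsp-6 RNAi; lines are 95% intervals from limma and filled points passed an adjusted p of 0.05. The filled points are hsp-12.1, at 1.60 and 1.93; the intervals of hsp-12.3 and hsp-12.6 are the widest.

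hsp-12.3 and hsp-12.6 varied more within the groups than between them, and they varied together. They are neighbouring protein-coding genes on chromosome IV in RefSeq's WBcel235 annotation. hsp-12.6 (192323_at) has been described as a target of both HSF-1 and the insulin pathway transcription factor DAF-16. hsp-12.3 (192338_at) was at 9.27, 6.93 and 6.97 in the empty vector arrays and 7.77, 7.9 and 8.02 under hsp-6 RNAi. The hsf-1 double arrays were at 9.49, 7.09 and 9.52, and the dve-1 double arrays at 10.26, 9.83 and 7.7. Empty vector replicate 1 was thus nearly as high as the high double RNAi arrays, while replicate 2 of the hsf-1 double group was nearly as low as the low empty vector arrays.

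For hsp-12.6 the empty vector arrays gave 7.09, 5.52 and 4.63 and the hsp-6 RNAi arrays 6.19, 5.59 and 6.32. The hsf-1 double arrays gave 7.57, 5.19 and 7.44, and the dve-1 double arrays 8.3, 6.89 and 5.4. The arrays that were high for hsp-12.3 were high for hsp-12.6: empty vector replicate 1, replicates 1 and 3 of the hsf-1 double and replicates 1 and 2 of the dve-1 double group. Over the 12 arrays r was 0.941 (rho 0.902), and for deviations from group means it was again 0.941. Cross-hybridisation between the 2 probe sets was not tested.

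The spread of hsp-12.3 within groups, pooled over the groups, was an SD of 1.18, larger than in 96.6% of tested probe sets, and that of hsp-12.6 was also 1.18 (96.5%), beside a median of 0.37 for all tested probe sets. With hsp-6 RNAi the SD was 0.13 for hsp-12.3 and 0.39 for hsp-12.6. The hsp-6 RNAi group had the smallest SD for 6 of the 8 member probe sets, and for 52.7% of all tested. The intervals were wide: for hsp-6 RNAi against empty vector they ran from -1.65 to 2.00 for hsp-12.3 and from -1.55 to 2.12 for hsp-12.6. The largest difference was 1.54 for hsp-12.3 in the dve-1 double group against empty vector (interval -0.29 to 3.37, adjusted p = 0.245, limma).

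The gene most like hsp-12.3 was icl-1, the glyoxylate cycle enzyme of isocitrate lyase and malate synthase activity (r = 0.95), followed by hsp-12.6 and acer-1 (r = 0.927). icl-1 was at 11.1 or above in the same 5 arrays and at 9.27 to 10.55 in the others. For hsp-12.6 the genes were hsp-12.3, F45D3.4 (r = 0.924) and C34C6.3 (r = 0.913). A list of 12 tested DAF-16 pathway genes, which includes icl-1, had 2 rises and no fall with hsp-6 RNAi (median 0.60). Of all tested probe sets 2.74% were called there (median -0.02). The 2 that rose were the superoxide dismutase sod-3, by 1.38 (adjusted p = 0.0361, limma), and dao-3, by 1.05 (adjusted p = 0.0287, limma). Against hsp-6 RNAi none rose, and 1 fell in the hsf-1 double group (median -0.27), dao-3, with a difference of -0.91 (adjusted p = 0.0351, limma). Of all tested probe sets 5.67% were called in the hsf-1 double group (median -0.10) and 5.74% in the dve-1 double group (median -0.06). The genes that fell in the dve-1 double group (median -0.24) were the lysozyme gene lys-7, with -3.31 (adjusted p = 0.0299, limma), and the metallothionein gene mtl-2, with -0.89 (adjusted p = 0.0367, limma). The mean level of the list per array had r = 0.573 with hsp-12.3 and 0.621 with hsp-12.6, and 0.792 and 0.77 for deviations from group means. Since icl-1 is in the list, it adds to these values, and they were not computed without it.

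**Figure D3:**
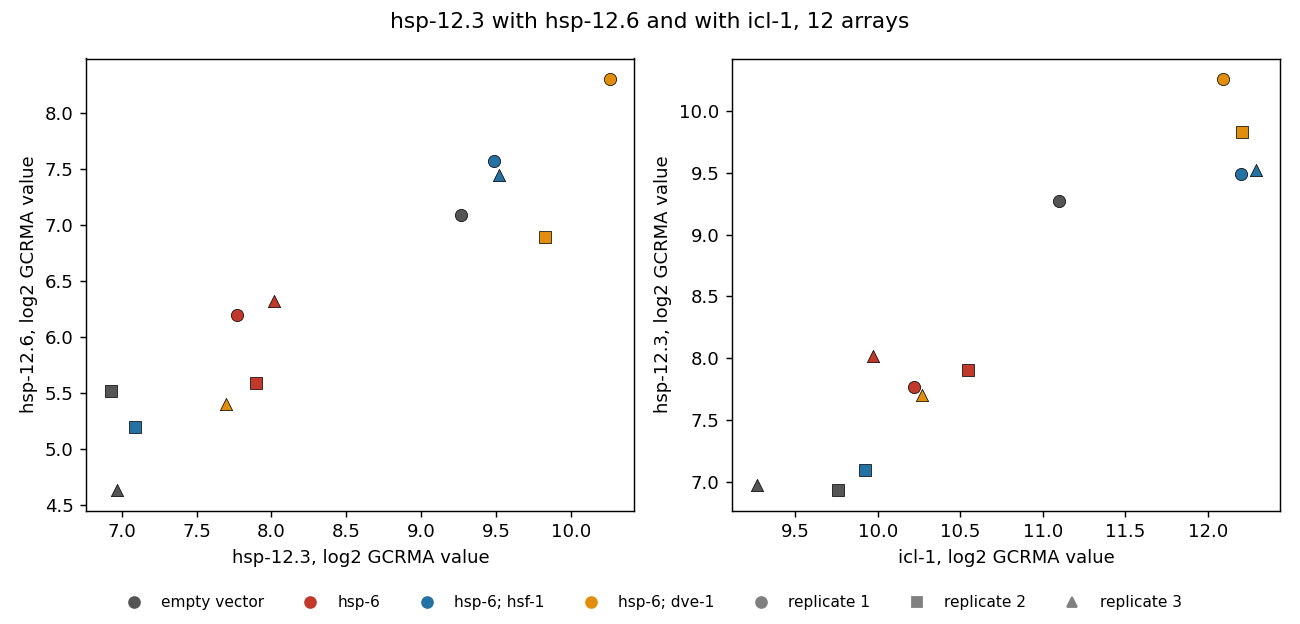
Log2 GCRMA values of hsp-12.6 against hsp-12.3 (left) and of hsp-12.3 against icl-1 (right) in the 12 arrays, coloured by RNAi group and shaped by replicate number. 5 arrays from 3 groups sit at the upper right, among them empty vector replicate 1.

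sip-1, whose protein is found in oocytes and embryos and acts best at acidic pH, had a strong signal and the smallest spread within groups of any member, a pooled SD of 0.21 and 0.20 for its 2 probe sets. The brighter probe set (192672_s_at) gave 15.33, 15.09 and 15.17 in the empty vector arrays and 15.19, 15.08 and 15.25 under hsp-6 RNAi. It gave 14.92, 14.92 and 14.45 in the hsf-1 double and 15.05, 14.65 and 15.09 in the dve-1 double group. The hsf-1 double arrays lay below all arrays of the hsp-6 RNAi and empty vector groups, as did 21.5% and 22.3% of all tested probe sets against each of these, and its lowest values were in the 2 outlying arrays. Its signal was at the top of the array's range, the highest of all probe sets other than controls in 7 of 12 arrays, and whether saturation compresses its differences was not tested.

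In the hsf-1 double group the difference from hsp-6 RNAi was -0.41 for this probe set (SE 0.14, interval -0.73 to -0.10, adjusted p = 0.114, limma) and -0.38 for the other, 192671_at (SE 0.15, interval -0.71 to -0.04, adjusted p = 0.157, limma). The dve-1 double group differed by -0.24 (interval -0.56 to 0.07) and -0.25 (interval -0.58 to 0.08). hsp-6 RNAi differed from empty vector by -0.02 (interval -0.34 to 0.29) and -0.05 (interval -0.38 to 0.28), the narrowest intervals of any member. Both probe sets followed each other closely (r = 0.991, rho 0.944).

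Oocyte and embryo markers were low in the arrays in which sip-1 was low. Of 17 tested, 1 fell in the hsf-1 double group against hsp-6 RNAi, the eggshell gene perm-2, beside 5.67% of all tested probe sets called. Below all hsp-6 RNAi arrays lay 11 of them, beside 21.5% of all, and the median difference was -0.52 (all, -0.10). None was called in the dve-1 double group against hsp-6 RNAi (5.74% of all), where the median difference was -0.45 (all, -0.06). The mean level of these markers ranged from 11.21 to 11.56 with empty vector, 11.23 to 11.35 with hsp-6 RNAi, 10.36 to 11.05 in the hsf-1 double and 10.39 to 11.23 in the dve-1 double group. Its lowest values, 10.36 and 10.39, were in the 2 outlying arrays. Of the 20 markers listed, end-1, hlh-1 and med-1 did not pass the filter on low values.

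The brighter sip-1 probe set had r = 0.976 (rho 0.96) with the mean level of the oocyte and embryo markers, and 0.974 for deviations from group means. Other lists ran opposite to it: r was -0.913 for pharynx and spermatheca markers (-0.906 for deviations) and -0.861 for muscle markers (-0.711). For collagens r was -0.86 (-0.725) and for sperm markers -0.742 (-0.356). The part of these tissues in the sip-1 values was not tested. The genes most like sip-1 were the glycogenin gene gyg-2 (r = 0.987), spsb-2 (r = 0.981) and the syntaxin gene syx-18 (r = 0.976). hsp-12.1, hsp-12.2, hsp-25 and hsp-43 ran opposite to the brighter sip-1 probe set over the arrays, with r of -0.782, -0.809, -0.799 and -0.588.

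**Figure D4:**
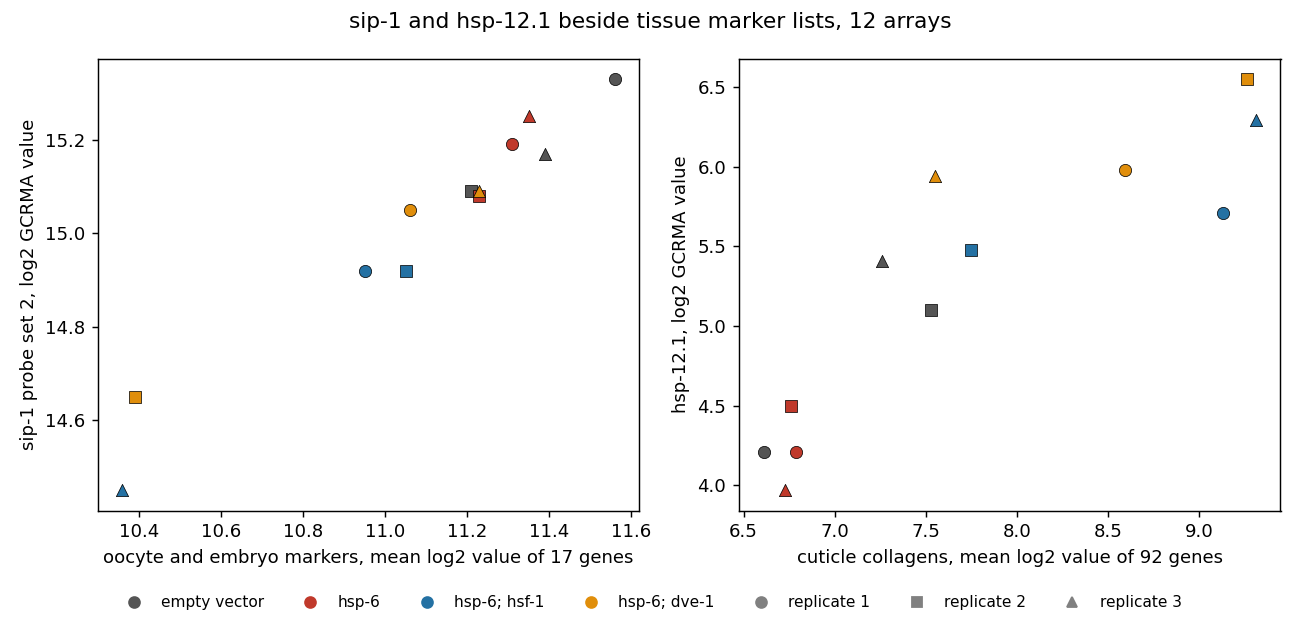
The brighter sip-1 probe set against the mean log2 level of 17 oocyte and embryo markers (left) and hsp-12.1 against the mean log2 level of 92 cuticle collagens (right), 1 point per array, coloured by RNAi group and shaped by replicate number. The 2 lowest sip-1 arrays have the lowest marker levels, 10.36 and 10.39, and the 2 highest hsp-12.1 arrays the highest collagen levels, 9.26 and 9.31.

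With hsp-6 RNAi against empty vector 0 of 8 probe sets were called by limma, where 2.74% of all tested probe sets were, and 2 had an unadjusted p below 0.05, where 21.6% of all did. In the comparison of the hsf-1 double group with hsp-6 RNAi, 1 was called higher and none lower, beside 5.67% of all called and 2.91% called higher. With the dve-1 double group 1 was also called higher and none lower, beside 5.74% of all called and 2.78% called higher. An unadjusted p below 0.05 was reached by 3 members in the first of these (24.7% of all) and 1 in the second (24.2%). None was called between the double RNAi groups (0.232% of all), and 0 had an unadjusted p below 0.05 there (2.3% of all). None was called against empty vector in the hsf-1 double (0% of all) or the dve-1 double group (2.27% of all), where 5 and 4 had an unadjusted p below 0.05, beside 29.8% and 26.8% of all. With 8 probe sets, 1 call is the smallest share above 0 that can be seen.

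The hsp-6 RNAi arrays lay wholly above empty vector for 3 of 8 probe sets and wholly below for none, beside 19.4% of all tested probe sets above. Compared with hsp-6 RNAi, 1 was above (12.9% of all) and 2 were below (21.5% of all) in the hsf-1 double group, and 2 were above (14% of all) and none below in the dve-1 double group. Against empty vector, the hsf-1 double group had 3 above (14.5% of all) and 2 below (22.3% of all), and the dve-1 double group 3 above (14.3% of all) and 1 below (18.2% of all). The median difference of the members was 0.23 with hsp-6 RNAi, where that of all tested probe sets was -0.02. It was 0.42 in the hsf-1 double group over hsp-6 RNAi (all, -0.10) and 0.58 in the dve-1 double group over hsp-6 RNAi (all, -0.06). Comparisons with hsp-6 RNAi share its 3 arrays, and those with empty vector share that group's arrays.

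Other genes of the small heat shock family behaved in more than one way. Of 11 listed, 5 were tested. Of the others, 4 hsp-16 genes have only probe sets that name several genes, and F08H9.3 and F08H9.4 matched no symbol in the array annotation used. The heat-inducible hsp-16.2, hsp-16.41 and hsp-17 rose with hsp-6 RNAi, and all 3 fell in the hsf-1 double group below their level with hsp-6 RNAi. For hsp-16.2 these differences were 5.63 and -5.65 (adjusted p = 0.00373 and 0.00604, limma), for hsp-16.41 5.72 and -5.70 (adjusted p = 0.00274 and 0.00506, limma) and for hsp-17 4.44 and -3.53 (adjusted p = 0.0111 and 0.0257, limma). In the same comparisons hsp-12.1 had -0.68 and 1.60. In the dve-1 double group hsp-16.2 and hsp-16.41 fell against hsp-6 RNAi, with differences of -4.48 and -4.44 (adjusted p = 0.0106 and 0.00896, limma), and hsp-17 differed by -2.64 (adjusted p = 0.0606, limma). The uncharacterised genes Y55F3BR.6 and ZK1128.7 were called in none of the 6 comparisons. ZK1128.7 differed by 0.86 in the hsf-1 double group over hsp-6 RNAi (adjusted p = 0.214, limma) and by 1.23 over empty vector (adjusted p = 0.105, limma).

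Of 18 tested genes of the wider heat shock pathway, 1 rose and none fell with hsp-6 RNAi (median -0.02), the inducible chaperone hsp-70, by 6.46 (adjusted p = 0.000557, limma). In the hsf-1 double group, hsp-70 was the 1 gene that fell from its hsp-6 RNAi level and none rose (median -0.34). In the dve-1 double group hsp-70 and the Hsp70 exchange factor hsp-110 fell, with differences of -3.59 and -0.65 (adjusted p = 0.00842 and 0.0419, limma), and none rose (median -0.27). Of all tested probe sets 2.74%, 5.67% and 5.74% were called in these 3 comparisons, in the same order. The medians of all tested probe sets were -0.02, -0.10 and -0.06. The mean level of these 18 genes per array was 9.35 to 9.39 with empty vector, 9.58 to 9.83 with hsp-6 RNAi, 9.06 to 9.12 in the hsf-1 double and 9 to 9.42 in the dve-1 double group. This mean includes hsp-70, at 5.9 to 6.83 with empty vector and 12.62 to 13.13 with hsp-6 RNAi, and the RNAi target hsf-1. The mean without these genes was not computed, so its shifts do not show a change across the pathway.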

How the data were processed

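Log2 values of 22625 probe sets on 12 arrays were used as the authors deposited them. GCOS 1.4 and GCRMA were used, per the submitters' processing notes. GCRMA settings and version: not given in the sources used here. No raw intensities were used, so there is no count depth, and precision is limited by the number of arrays. Names come from the array annotation, and all 7 member genes were found in RefSeq's gene table. Whether a probe set also detects transcripts of other genes was not tested for any member or for icl-1. Control probe sets were left out. Probe sets above log2 4 in at least 3 arrays were tested in a single limma fit (limma 3.58.1, R 4.3.3) over all arrays, with 1 mean per group and an intensity trend (8 residual, 3.16 prior degrees of freedom). A call is a two-sided Benjamini-Hochberg adjusted p below 0.05 over 12057 probe sets. How often the fit misses a change or makes a false call in arrays like these was not tested. A member that was not called is thus not shown to be unchanged. List genes are represented by their brightest probe set. Named were all members, called genes of the small heat shock and heat shock pathway lists, the RNAi targets and the 3 genes of highest correlation per member. The other list genes named (Y55F3BR.6, ZK1128.7, F08H9.3, F08H9.4, sod-3, dao-3, lys-7, mtl-2, perm-2, end-1, hlh-1, med-1 and the pharynx and spermatheca genes), the values of col-140 and icl-1 and the uncalled hsp-17 value were chosen after their values were seen. The members and lists were chosen with earlier results of these data known. Alternatives covered the filter, normalization, variance model, low values, arrays in the fit and replicate block. Sequences and positions are not given here. Figures were drawn with matplotlib 3.10.9.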

Additional observations from a re-analysis of the deposited data

How the results depend on the processing

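Over 1098 values of members under 11 alternatives and 12 fits without 1 array, no called difference changed sign, 14 calls were lost and 4 were gained; 25 uncalled differences changed sign. The 1 member called in hsf-1 double against hsp-6 RNAi, hsp-12.1, became 0 with no filter (adjusted p = 0.0718), with a filter at log2 6, which leaves hsp-12.1 untested, with replicates 1 and 3 of hsp-6 RNAi, which resemble each other most, averaged (0.106), without the 2 outlying arrays (0.0522) and with the replicate block (0.0512), where the difference stayed 1.60. The 1 called in dve-1 double against hsp-6 RNAi became 0 with the log2 6 filter and with the averaged arrays (0.0741). Without the 2 outlying arrays 1 member, hsp-25, was called with hsp-6 RNAi against empty vector (0 otherwise). Leaving out 1 array gave 0 to 1 members in each of the comparisons of double RNAi with hsp-6 RNAi, 0 to 1 for hsf-1 double and 0 to 2 for dve-1 double against empty vector (hsp-25, and hsp-12.1 at 0.0495 without hsf-1 double replicate 3), and 0 otherwise.

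The replicate numbers are not treated as pairs, since nothing in the labels makes them so. Same-numbered arrays were nonetheless somewhat more alike. Deviations from group means correlated above 0.1 for 8 of 18 same-numbered pairs and 7 of 36 others (median r 0.09 and -0.05). The replicate block changed no other member's call. Counts over all probe sets moved widely: hsp-6 RNAi against empty vector from 330 to between 97 (without hsp-6 RNAi replicate 1) and 1681 (without the outlying arrays), hsf-1 double against hsp-6 RNAi from 684 to between 35 (averaged arrays) and 1433 (without hsf-1 double replicate 2), and dve-1 double against hsp-6 RNAi from 692 to between 101 (without hsp-6 RNAi replicate 1) and 1242 (without dve-1 double replicate 3). Between the double RNAi groups they ran from 1 to 31 (28 as reported), against empty vector from 0 to 1047 for hsf-1 double (0) and from 36 to 1038 for dve-1 double (274). hsp-12.1 lies near the low end of the signal and sip-1 near the top, which limits what either can show.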
